A study of Mus musculus with 30 samples.

Results

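Voltage-gated calcium channel subunits were followed across dorsal root ganglia (DRG) and hind paw as 10 genes, chosen by symbol from the 22609 genes counted in each library: the pore-forming subunits Cacna1a, Cacna1b, Cacna1c, Cacna1d, Cacna1e and Cacna1h, the alpha2delta subunits Cacna2d1, Cacna2d2 and Cacna2d3, and the cytoplasmic subunit Cacnb4. The 16 other calcium channel genes of the files served only as the rest of each subunit class. All 10 genes had reads in all 30 libraries.

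Voltage-gated calcium channels open when a membrane depolarises and let calcium into the cell. The alpha1 subunit forms the pore and sets the channel type, while alpha2delta and beta subunits bring the pore to the membrane and tune its gating. In sensory neurons the N-type and P/Q-type channels trigger transmitter release, T-type channels lower the firing threshold, and alpha2delta-1 is the binding site of gabapentin and pregabalin.

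The mice were C57BL/6J, aged 10 to 12 weeks, and received 1 µg of prolactin (PRL) or phosphate-buffered saline (Veh) by injection into the paw. The 30 libraries formed 10 groups of 3: PRL and Veh in each sex and tissue, made after ribosomal RNA (rRNA) depletion, and a further female PRL group in each tissue, labelled PRL_Sh, prepared by mRNA selection. Sh is not explained in the labels, so the kit and whatever Sh marks cannot be told apart. Both 1 injection and a course of daily ones are described in the protocol, and no library is assigned to either. Nothing says that replicates came from separate animals, so each p-value reflects only the spread among the libraries at hand, which may be technical.

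Reads assigned to genes numbered 8.99 to 13.3 M per library in rRNA-depleted DRG, 6.87 to 13.5 M in rRNA-depleted paw and 21.8 to 26.5 M in PRL_Sh. The labels list 18 female and 12 male libraries, the reverse of the series' text. Tissue markers followed the labels: the nociceptor sodium channel Scn10a reached at least 860.3 CPM (counts scaled to library size) in all DRG libraries and at most 1.76 CPM in paw, and the epidermal keratin Krt10 was at 15322 CPM or more in paw. Skeletal muscle RNA varied within groups, with 12 muscle marker genes summing to 2208 to 124941 CPM in rRNA-depleted paw and 202.2 to 24724 CPM in rRNA-depleted DRG.

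The stretches before the RefSeq starts of 3 members are shown because they set apart the member with the largest difference between the tissues (Cacna1b), the most abundant alpha2delta member (Cacna2d1) and a member called in the paw comparison of PRL and Veh (Cacna1c). They are printed 5′ to 3′ on the gene's strand from the RefSeq table of GRCm38.p6, without bases of annotated exons, at chr2:24763153-24763402 (minus strand), chr5:15934441-15934690 (plus strand) and chr6:119196419-119196659 (minus strand). Capitals mark GGGCGG, the core of the GC box, on either strand, overlapping copies included.
Cacna1b: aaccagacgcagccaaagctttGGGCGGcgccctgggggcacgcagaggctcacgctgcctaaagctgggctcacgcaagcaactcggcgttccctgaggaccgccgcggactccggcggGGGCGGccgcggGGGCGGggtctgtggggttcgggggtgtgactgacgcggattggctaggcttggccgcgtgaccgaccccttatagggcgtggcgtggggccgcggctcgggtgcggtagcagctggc
Cacna2d1: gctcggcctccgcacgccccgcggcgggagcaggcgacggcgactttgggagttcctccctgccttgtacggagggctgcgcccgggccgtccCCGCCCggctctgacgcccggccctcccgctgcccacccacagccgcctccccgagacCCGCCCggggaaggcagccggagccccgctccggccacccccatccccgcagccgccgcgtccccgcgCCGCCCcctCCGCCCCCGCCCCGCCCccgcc
Cacna1c: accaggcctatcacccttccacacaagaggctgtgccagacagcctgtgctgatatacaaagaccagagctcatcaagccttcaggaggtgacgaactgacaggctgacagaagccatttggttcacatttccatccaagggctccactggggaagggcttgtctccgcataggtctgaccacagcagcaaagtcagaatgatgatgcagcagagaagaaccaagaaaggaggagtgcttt
Of the 10 members, 8 had an entry in that table, and the first listed start was used where there were several (3 for Cacna1c). GGGCGG occurred in the 250 bases before the start of 5 of the 8 (Cacna1b, Cacna2d1, Cacna2d2, Cacna2d3 and Cacnb4) and in none of Cacna1c, Cacna1d and Cacna1e. It occurred in 32.7% of all 32851 windows of that length. The same 5 windows held 29 to 37 CpG dinucleotides and those of Cacna1c, Cacna1d and Cacna1e 2 to 6, against a median of 6 over all windows. The first 9 bases of RE1 as TTCAGCACC, read on both strands, were in none of the 8 windows and in 0.301% of all. The later RE1 letters GGACAGC were in none of the 8 and in 5.28% of all, and TATAAA was in 1, Cacna1d, and in 12.4% of all. All 250 bases of the windows of Cacna1d, Cacna1e and Cacna2d2 lay in annotated exons, as did part of those of Cacnb4 and Cacna1c. The window of Cacna1e lay far inside its GENCODE M21 gene model. The matches and CpG counts therefore do not all describe sequence upstream of a gene, and the low counts mark no promoter class. These are matches of letters in 1 window per gene.

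The pore subunits of presynaptic channels did not overlap between the tissues. In the rRNA-depleted libraries, Cacna1b, the N-type pore, had a lowest, median and highest level of 155.4, 183.3 and 204.4 CPM in DRG (n = 12) and of 0.0783, 0.554 and 1.44 CPM in paw (n = 12). In those paw libraries it rested on 76 reads in all. Cacna1a, the P/Q-type pore, was at 159.1, 193 and 212.2 CPM in DRG and at 4.18, 8.28 and 10.7 CPM in paw. Neither gene overlapped between the tissues in any of the 24 libraries. Cacna1e, the R-type pore, was at 28.6, 33.8 and 45.5 CPM in DRG and at 2.19, 4.97 and 8.36 CPM in paw, also without overlap.

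**Figure D1:**
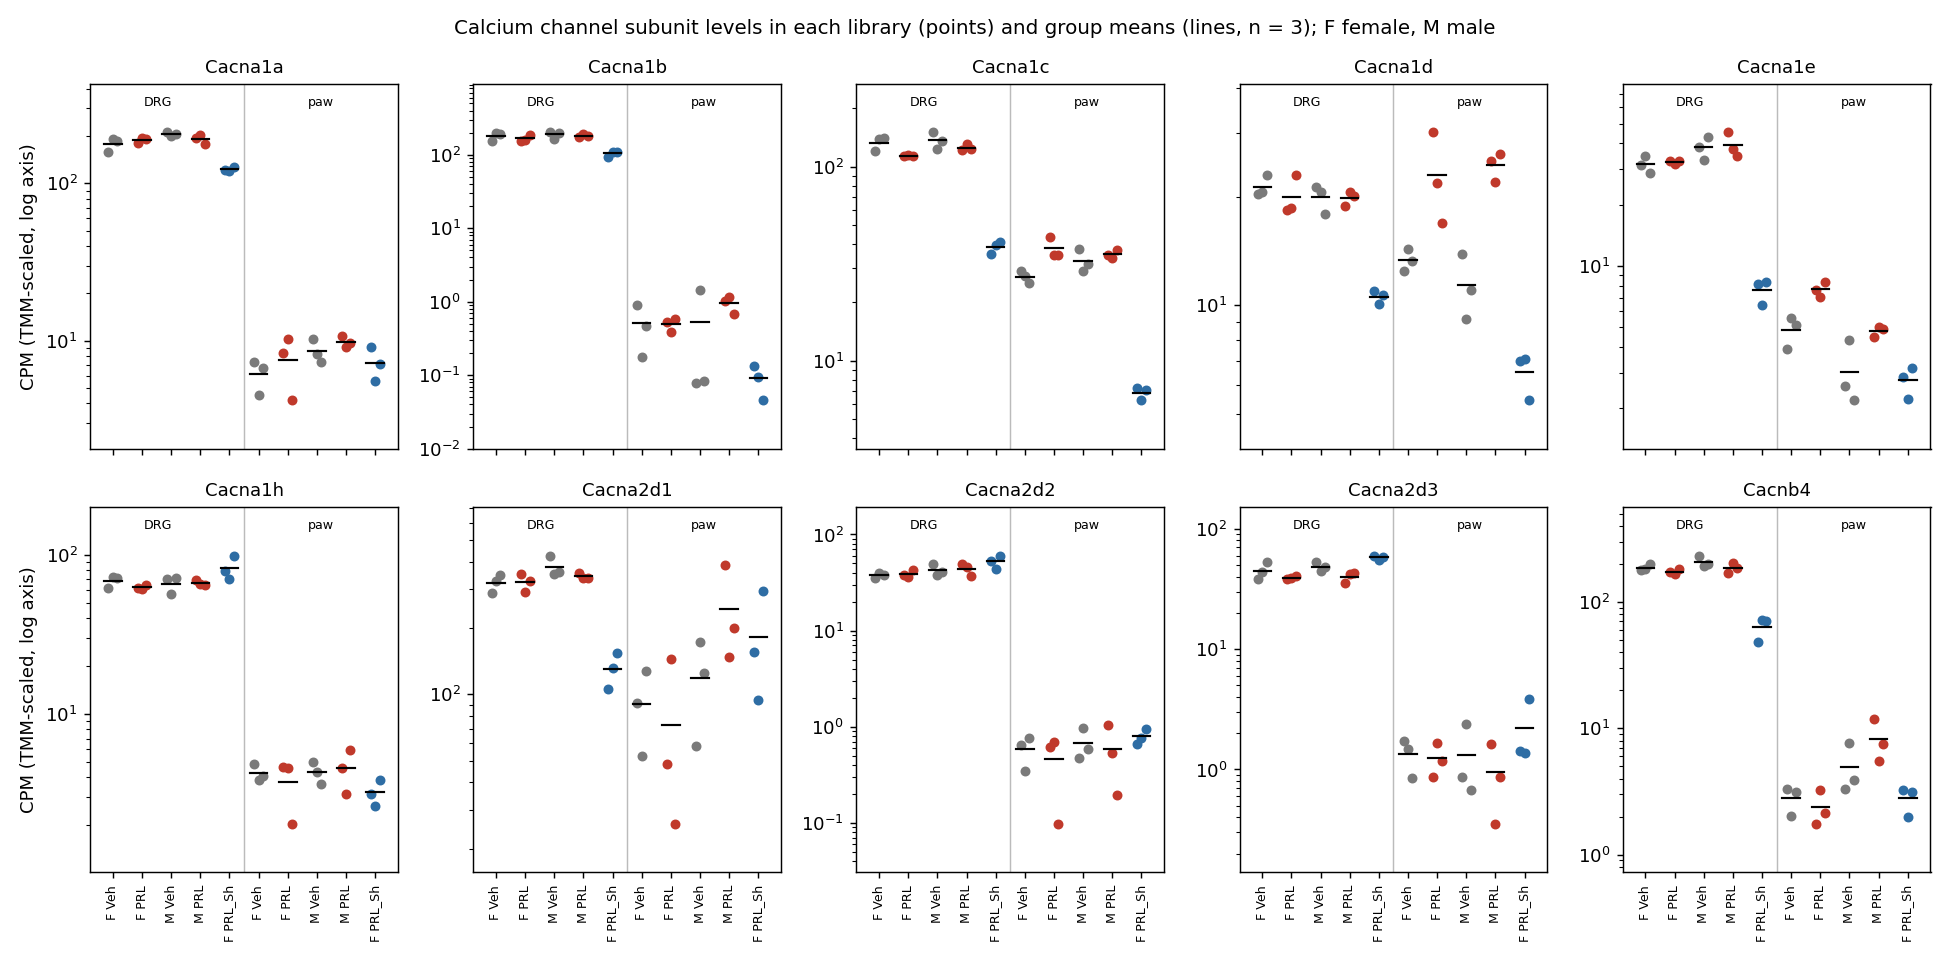
Levels of the 10 subunit genes in each of the 30 libraries (points; CPM scaled by TMM, log axis) with group means (lines, n = 3), Veh in grey, PRL in red and PRL_Sh in blue, DRG left and paw right of the vertical line. Cacna1b stayed at 1.44 CPM or less in paw and at 92.2 CPM or more in DRG, while Cacna1d and Cacna2d1 overlapped between the tissues.

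The L-type and T-type pores gave a mixed picture. Cacna1c, the L-type pore of smooth muscle, heart and neurons, was at 113.1, 123.9 and 151.1 CPM in DRG and at 25.1, 34.4 and 43.6 CPM in paw, without overlap. Cacna1d, an L-type pore that opens at more negative voltages, was at 17.9, 20.4 and 22.9 CPM in DRG and at 9.14, 15.6 and 30.2 CPM in paw, so its ranges overlapped. Cacna1h, the T-type pore of many nociceptors and touch-sensitive neurons, was at 56.6, 64.97 and 72.2 CPM in DRG and at 2.04, 4.44 and 5.98 CPM in paw. Exons of Cacna1d and Cacna1h overlap exons of Chdh and Tpsg1 on the opposite strand in GENCODE M21. The strand setting of the counting is not given in the sources used here. Part of the reads counted for Cacna1d and Cacna1h could therefore belong to Chdh and Tpsg1, and how many was not measured.

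Among the accessory subunits, Cacna2d1 was the only one whose levels overlapped between the tissues. It was at 287.6, 343.8 and 426.1 CPM in DRG and at 25.9, 126.8 and 387.4 CPM in paw, and the highest paw library lay inside the DRG range. Cacna2d2 was at 35.6, 39.2 and 48.8 CPM in DRG and at 0.0972, 0.601 and 1.03 CPM in paw. Cacna2d3, the alpha2delta subunit for which variants alter heat pain sensitivity, was at 35.2, 42.3 and 53.0 CPM in DRG and at 0.352, 1.02 and 2.40 CPM in paw. Cacnb4, a beta subunit of neuronal channels, was at 165.9, 183.0 and 232.2 CPM in DRG and at 1.75, 3.29 and 11.8 CPM in paw. The last 3 genes were separated between the tissues in every rRNA-depleted library, Cacna2d2 on 73 paw reads in all. How many of all genes were separated in this way, here or for the pore subunits above, was not counted. Of 15949 genes tested, 85.4% differed between the tissues in the vehicle arms.

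The DRG and paw of the vehicle arms were compared to ask which subunits mark the ganglion. All 10 members were higher in DRG (edgeR's quasi-likelihood test with Benjamini-Hochberg adjustment, threshold 0.05, average of both sexes), where 85.4% of the 15949 genes tested differed between the tissues and 42.3% were higher in DRG. Their median log2 difference was 4.34, against -0.02 over all genes tested. Cacna2d2, too low for the tests within rRNA-depleted paw below, passed the filter on low counts here through its DRG level and so had to differ. The difference was largest for Cacna1b at 8.71 on the log2 scale (SE 0.25, adjusted p = 6.59e-18). It was 6.04 for Cacna2d2, 5.77 for Cacnb4, 5.22 for Cacna2d3 and 4.71 for Cacna1a. It was 3.97 for Cacna1h, 3.21 for Cacna1e and 2.18 for Cacna1c. The smallest were those of Cacna2d1 at 1.74 (SE 0.34, adjusted p = 9.19e-05) and Cacna1d at 0.74 (SE 0.12, adjusted p = 7.45e-06). In bulk tissue, fewer cells of a type and less RNA per cell cannot be told apart.

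In the PRL arms, 9 of the 10 members were again higher in DRG and Cacna1d was lower there, where 83.7% of all genes tested differed (39.5% higher and 44.3% lower in DRG). The 9 include Cacna2d2, which entered this same fit through its DRG level and so had to differ. Cacna1d, at 18.4 to 22.9 CPM in DRG and 16.9 to 30.2 CPM in paw in these arms, had a log2 difference of -0.31 (SE 0.11, edgeR adjusted p = 0.0161). That call was lost when libraries were scaled by total gene reads (adjusted p = 0.059), with a muscle covariate (0.0846), without Female paw PRL replicate 1 (0.0815, log2 -0.19) and without Male paw PRL replicate 3 (0.0502). In the PRL_Sh libraries 9 of 10 members were higher in DRG, where 80.2% of all genes differed (40.2% higher). They include Cacna1b, which had 3, 2 and 1 reads in the paw libraries, passed the filter through DRG and so had to differ. The exception was Cacna2d1, at 105.3, 131.5 and 154.2 CPM in the 3 DRG libraries and at 94.0, 155.7 and 294.5 CPM in the 3 paw libraries (log2 -0.25, 95% interval -0.99 to 0.49, edgeR adjusted p = 0.561). Without Female paw PRL-Sh replicate 3 its difference was 0.30.

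Levels of different genes were compared per kb of exon (CPM per kb), with lengths from GENCODE M21. In rRNA-depleted DRG, Cacna1a held 35.1% ± 2.4 (SD, n = 12) of the summed alpha1 level and Cacna1b 26.8% ± 2.2. Cacna1c (12.1% ± 1.1) and Cacna1h (11.6% ± 0.9) followed and overlapped in range. So did Cacna1e (3.37% ± 0.45) and Cacna1d (3.29% ± 0.38), the lowest of the 6 pore members. The skeletal muscle pore Cacna1s varied from 0.642% to 20.1% between these DRG libraries. In rRNA-depleted paw Cacna1s held 66.7% ± 23 of the class, from 11.8% to 88.0% between libraries. The T-type pore Cacna1g held 13.8% ± 10. Of the members, Cacna1c held 7.20% ± 5.5 there and Cacna1d 6.33% ± 4.9, and Cacna1b held 0.176% ± 0.15.

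The accessory classes also differed in make-up. Cacna2d1 made up 69.3% ± 1.3 of the alpha2delta level in rRNA-depleted DRG, with Cacna2d3 at 18.6% ± 1.7 and Cacna2d2 at 11.9% ± 1.1, and these ranges did not overlap. In rRNA-depleted paw Cacna2d1 made up 95.2% ± 2.4. Cacnb4 was not the leading beta subunit: Cacnb3 held 63.5% ± 2.0 of the beta level in rRNA-depleted DRG and Cacnb4 26.8% ± 1.5. In paw Cacnb1, the beta subunit of skeletal muscle, and Cacnb3 held 48.3% ± 16 and 44.8% ± 17, and Cacnb4 3.40% ± 1.4. With the longest coding transcript as length, the order within each class stayed the same in rRNA-depleted DRG.

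**Figure D2:**
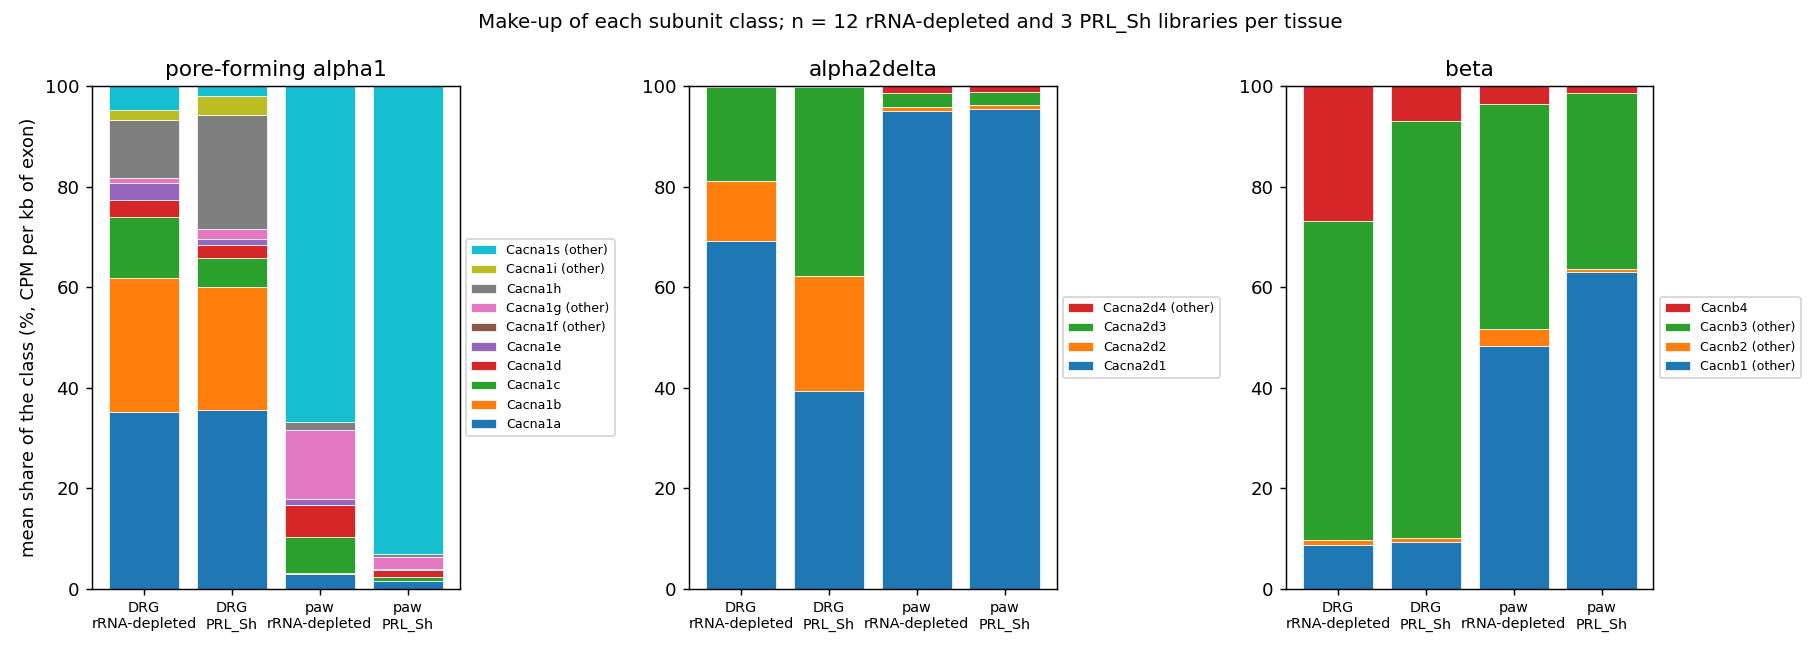
Mean share of each gene in the summed CPM per kb of its subunit class (%, y axis) in rRNA-depleted libraries (n = 12 per tissue) and PRL_Sh libraries (n = 3 per tissue), with genes that are not members marked as other. Cacna1a and Cacna1b lead the pore subunits in DRG, Cacna1s leads in paw, and the Cacna2d1 share in DRG is 69.3% after rRNA depletion and 39.4% in PRL_Sh.

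The paw level of Cacna2d1 moved with the muscle markers. Across the 12 rRNA-depleted paw libraries, Pearson's r between its log2 CPM and the log2 summed CPM of the 12 muscle genes was 0.951 (permutation p = 1e-05, the smallest that 100000 permutations can give, adjusted p = 0.0001 over the 10 members) and Spearman's rho was 0.909 (permutation p = 7e-05, adjusted p = 0.0007). Without the 2 libraries farthest from the median muscle level r was 0.967. Within groups, after subtraction of each group's mean, r was 0.947 (exact permutation p = 0.000772, adjusted p = 0.00772). Cacnb4 followed less closely, with r = 0.76 (permutation p = 0.00284, adjusted p = 0.0142), rho = 0.832 (permutation p = 0.00123, adjusted p = 0.00615) and 0.834 without the 2 farthest libraries, but within groups r was 0.63 (exact permutation p = 0.0494, adjusted p = 0.165). The relations of Cacna1a (r = 0.693, adjusted permutation p = 0.0386) and Cacna2d2 (r = 0.713, adjusted permutation p = 0.0386) did not hold without the 2 farthest libraries, with r of 0.0547 and 0.216. Within groups r was 0.708 for Cacna1a (exact permutation p = 0.122, adjusted p = 0.305) and 0.811 for Cacna2d2 (exact permutation p = 0.00694, adjusted p = 0.0347), which passed the adjustment at 73 reads in all 12 libraries. For Cacna1d r was 0.0101 (permutation p = 0.977), and the other members did not pass the adjustment.

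**Figure D3:**
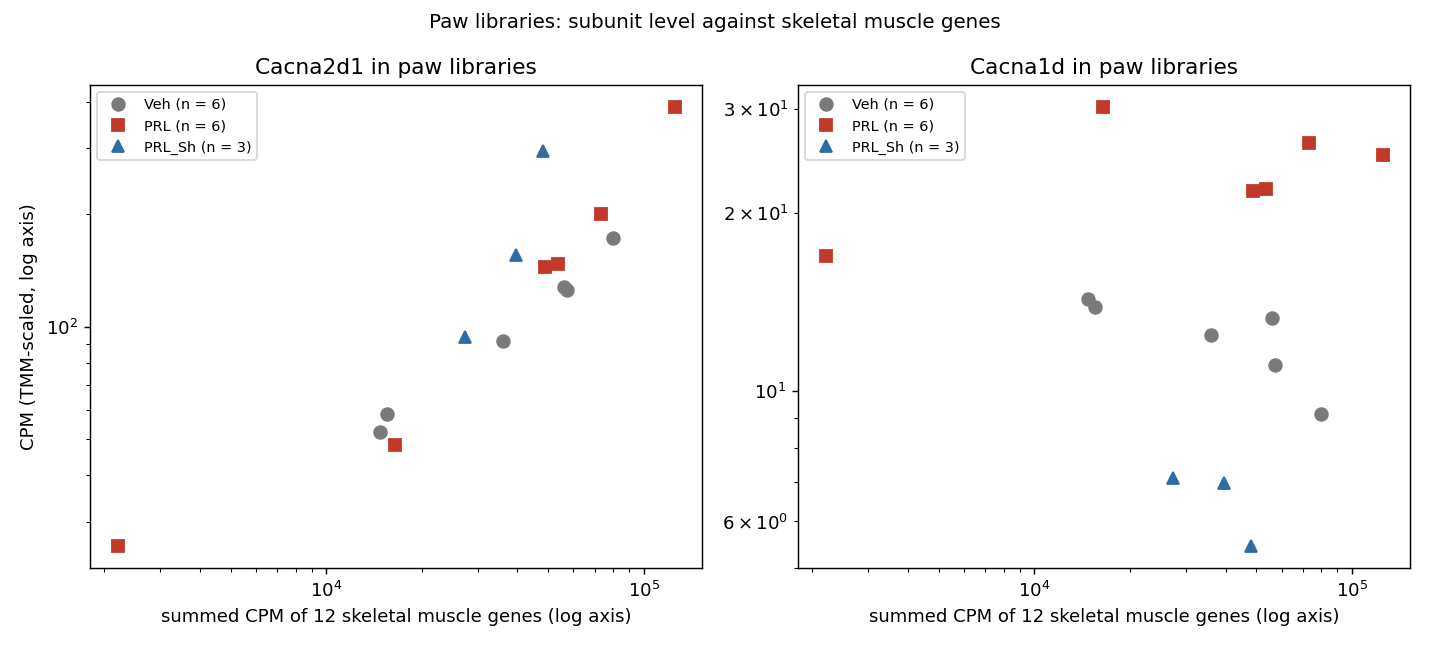
Level of Cacna2d1 (left) and Cacna1d (right) against the summed CPM of 12 skeletal muscle genes in the 15 paw libraries (log axes), Veh as grey circles, PRL as red squares and PRL_Sh as blue triangles. Cacna2d1 climbs with the muscle genes from 25.9 to 387.4 CPM, whereas all 6 PRL libraries lie above all 6 Veh libraries for Cacna1d. The share of all genes separated in this way was not counted.

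PRL was compared with Veh in DRG to ask whether prolactin altered subunit transcripts in the ganglion. None of the 10 members was called in females, males or the average of both sexes with edgeR, where 0.653%, 0.517% and 3.60% of 14705 genes were called. At an unadjusted p below 0.05 there was 1 member in females (Cacna1c), 1 in males (Cacna2d3) and 3 in the average (Cacna1c, Cacna2d3 and Cacnb4). Over all genes 12%, 14.9% and 21.5% were below that value. DESeq2 called none in either sex and 1 in the average, Cacna1c (log2 -0.17, adjusted p = 0.0426).

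Cacna1c was at 113.4, 115.2 and 113.1 CPM with PRL and at 120.6, 138.3 and 139.8 CPM with Veh in female DRG. In male DRG it was at 122.1, 130.2 and 123.8 CPM with PRL and at 151.1, 123.9 and 135.2 CPM with Veh. The female groups did not overlap and the male groups did, and how many of all genes were separated in this way was not counted. Its average change was -0.17 (95% interval -0.27 to -0.07, edgeR adjusted p = 0.0907). Without Female DRG Veh replicate 1 and without Male DRG Veh replicate 2 the adjusted p was 0.0303 and 0.0346, and without the former Cacna2d3 was called too (0.0421). For Cacna2d3 the average change was -0.23 (interval -0.38 to -0.07, adjusted p = 0.124). The average intervals of the other 8 members lay within -0.25 and 0.21. In the same DRG libraries 6 fibroblast genes summed to 2324 to 4196 CPM with Veh and 4155 to 6936 CPM with PRL. The 8 glial genes summed to 12871 to 17850 CPM with Veh and 18747 to 24812 CPM with PRL, without overlap. The part of either list was not tested.

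**Figure D4:**
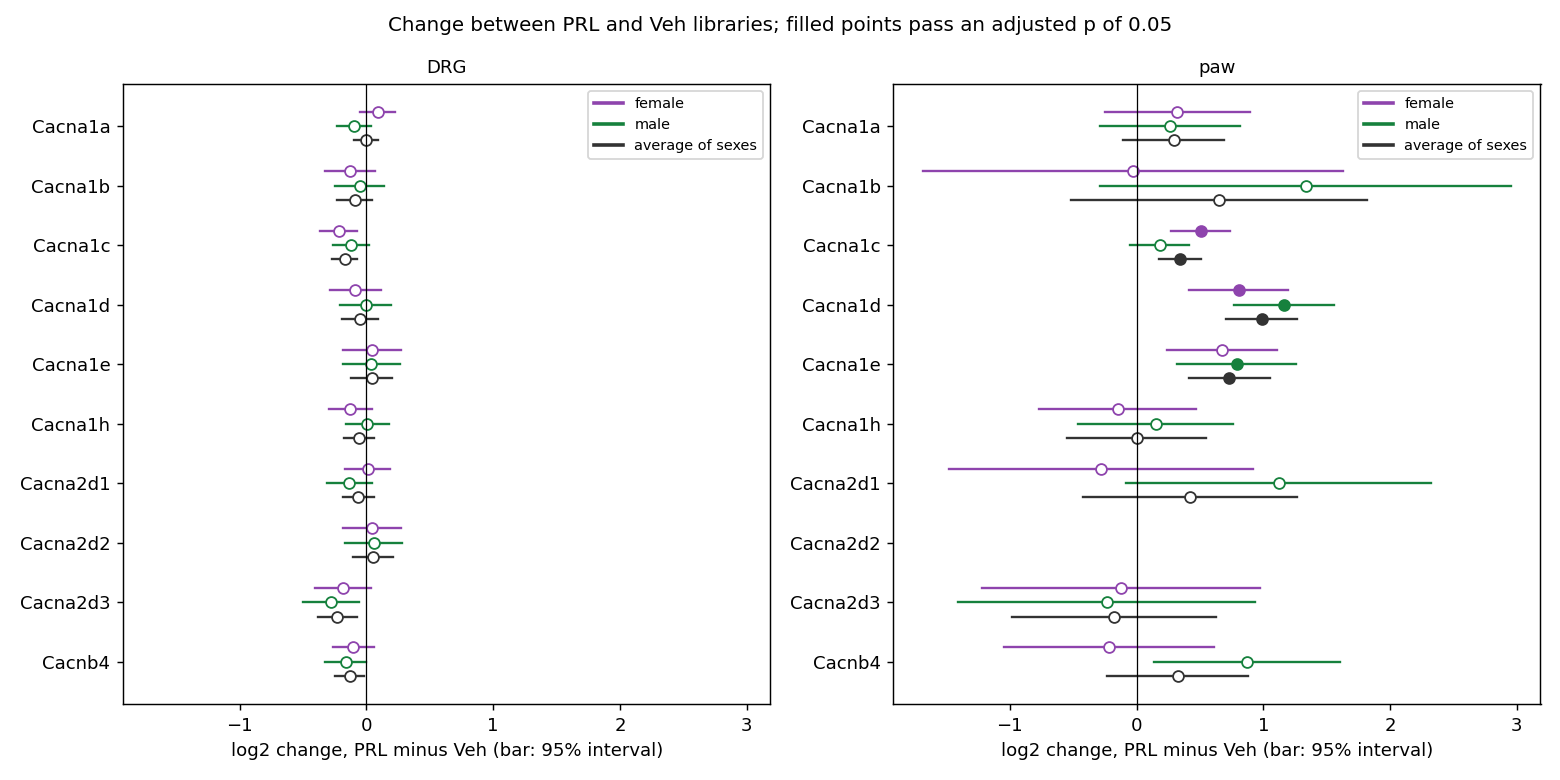
Change between PRL and Veh libraries for each member in DRG (left) and paw (right), in females (purple), males (green) and the average of both sexes (black), as log2 change with its 95% interval; filled points pass an adjusted p of 0.05 in edgeR. In DRG no point is filled, and in paw Cacna1c, Cacna1d and Cacna1e are higher with PRL in the average; Cacna2d2 was too low in paw for the test.

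In paw, 3 pore subunits were higher with PRL in the average of both sexes. Cacna1d rose by 0.99 on the log2 scale (SE 0.14, edgeR adjusted p = 0.000422), Cacna1e by 0.73 (SE 0.16, adjusted p = 0.00691) and Cacna1c by 0.34 (SE 0.08, adjusted p = 0.0108). These 3 were among 9 members tested, and 14.9% of 14721 genes were called higher and 24.9% called in either direction. Cacna2d2 did not pass the filter on low counts. All 3 average calls held in each alternative run, with adjusted p of at most 0.0320. Without Female paw PRL replicate 3 Cacna1a was called as well (0.44, adjusted p = 0.0452), and without Male paw Veh replicate 2 Cacna1b (1.70, adjusted p = 0.0282).

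The single libraries show the separation for Cacna1d. It was at 30.2, 21.8 and 16.9 CPM with PRL and at 12.4, 14.3 and 13.2 CPM with Veh in female paw. In male paw it was at 25.1, 21.9 and 26.2 CPM with PRL and at 13.9, 9.14 and 11 CPM with Veh. Every PRL library was above every Veh library, in both sexes. How many of all genes were separated in this way was not counted, and 24.9% of genes tested were called in the average. Reads of Cacna1d that could belong to Chdh, on the opposite strand, were not measured here either. Cacna1e was at 7.60, 7.06 and 8.36 CPM with PRL and at 3.93, 5.58 and 5.11 CPM with Veh in female paw. In male paw it was at 4.47, 5.02 and 4.92 CPM with PRL and at 2.58, 4.33 and 2.19 CPM with Veh. Its groups did not overlap within either sex, which was not counted over all genes either, and each library held 26 to 87 reads of it. Cacna1c was at 43.6, 35.2 and 35.0 CPM with PRL and at 28.9, 27.3 and 25.1 CPM with Veh in female paw. In male paw it was at 35.1, 33.7 and 37.4 CPM with PRL and at 37.7, 29.0 and 31.7 CPM with Veh, so the male groups overlapped.

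The calls in a single sex were less stable. In female paw Cacna1c (log2 0.51, edgeR adjusted p = 0.0225) and Cacna1d (0.81, adjusted p = 0.0295) were called, both higher, with 7.55% of all genes called and 6.54% called higher. Both were lost when only those 6 libraries were fitted (adjusted p = 0.0744 and 0.0969). Cacna1c was also lost without PRL replicate 1 (0.0899), Veh replicate 2 (0.08) or Veh replicate 3 (0.105), and Cacna1d without any single library except PRL replicate 3, with adjusted p up to 0.117. In male paw Cacna1d (1.16, adjusted p = 0.00222) and Cacna1e (0.79, adjusted p = 0.0347) were called, both higher, with 22.4% of all genes called and 12.3% called higher. Cacna1d held throughout. Cacna1e was lost without a filter on low counts (0.0533), when only those 6 libraries were fitted (0.0804) and without any single library except Veh replicate 2, with adjusted p up to 0.130. Without Male paw Veh replicate 2, the shallowest library, 4 members were called, with Cacna1b at 3.44 (adjusted p = 0.0128) and Cacnb4 at 1.27 (adjusted p = 0.0361). That library had 13.6% of its counts in genes and 55.5% not uniquely aligned, against medians of 24.5% and 43.0% in rRNA-depleted paw. Cacna1b had 9 reads in that library and 1 in each of the other Veh libraries of male paw.

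Other tissue markers differed between the same arms. In paw, 6 leukocyte genes summed to 210.7 to 389.0 CPM with Veh and 546.9 to 815.5 CPM with PRL, and 6 fibroblast genes to 6550 to 16350 CPM with Veh and 16708 to 30174 CPM with PRL, without overlap. No gene of these 2 lists was at 0 throughout a paw group. The 3 genes known to differ between C57BL/6 substrains (Nnt, Gabra2 and Wdfy1) summed to 37.1 to 41.2 CPM with Veh and 79.4 to 124.3 CPM with PRL in paw, and to 72.6 to 83.0 and 187.6 to 207.4 CPM in DRG, with Gabra2 at 0 in all 3 female Veh paw libraries. The part of these differences in the subunit results was not tested. With the muscle list as a covariate the average changes were 0.98 for Cacna1d, 0.74 for Cacna1e and 0.34 for Cacna1c, all called (edgeR, adjusted p of at most 0.00839). Cacna2d1 had a change of 0.42 (SE 0.43, adjusted p = 0.525) without that covariate and 0.39 (adjusted p = 0.0735) with it.

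The paw change was then set against the DRG change in a single fit of all 24 rRNA-depleted libraries. The difference, paw minus DRG, was 1.05 for Cacna1d (SE 0.16, edgeR adjusted p = 0.000219), 0.72 for Cacna1e (SE 0.17, adjusted p = 0.00729) and 0.53 for Cacna1c (SE 0.10, adjusted p = 0.000907). These 3 of 10 members were called, all higher, as were 9.80% of 15949 genes, with 14.9% called in either direction. They kept the call in each alternative run. Cacna2d2 entered this fit through its DRG level, so its value is no measure of a paw change. Cacna1a was called too without Female paw PRL replicate 3 (0.46, adjusted p = 0.0296), and Cacna1b without Male paw Veh replicate 2 (1.83, adjusted p = 0.00754).

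Sex was compared in 2 ways. The difference between the female and the male PRL change was called for no member in DRG or paw with edgeR or DESeq2, and none had an unadjusted p below 0.05. In DRG 0% and in paw 0.00679% of all genes were called, and 3.65% and 13.1% had an unadjusted p below 0.05 in edgeR. The paw intervals, female minus male, ran from -0.91 to 0.20 for Cacna1d, from -0.75 to 0.52 for Cacna1e and from -3.69 to 0.97 for Cacna1b. Between female and male Veh libraries no member was called either (0.0544% of genes in DRG and 0.109% in paw). There, 3 members had an unadjusted p below 0.05 in DRG (Cacna1a at -0.20, Cacna1e at -0.27 and Cacna2d1 at -0.24, female minus male) and 2 in paw (Cacna1c at -0.27 and Cacna1e at 0.75), and DESeq2 called none. Of all genes tested, 6.83% in DRG and 8.1% in paw were below that value in edgeR.

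The PRL_Sh libraries were compared with the female PRL libraries of the same tissue, which differ in kit and in the Sh label. In DRG all 10 members were called, 7 lower and 3 higher in PRL_Sh, where 61.6% of 14985 genes were called (32.3% lower, 29.3% higher). Cacna1e was at 8.18, 6.43 and 8.34 CPM in PRL_Sh and at 32.9, 31.7 and 32.9 CPM in PRL (log2 -2.09, SE 0.11, edgeR adjusted p = 3.47e-06). Cacna1c was at 35.3, 39.4 and 41.0 CPM in PRL_Sh against 113.4, 115.2 and 113.1 CPM in PRL (log2 -1.57). These 2 pore subunits showed the greatest falls. Cacnb4 was lower by -1.45, Cacna2d1 by -1.32, Cacna1d by -0.92, Cacna1b by -0.68 and Cacna1a by -0.62, all on the log2 scale. Cacna2d3 was higher by 0.55, Cacna2d2 by 0.43 and Cacna1h by 0.39. The rises of Cacna2d2 and Cacna1h did not hold without PRL replicate 1 (edgeR adjusted p = 0.0602 and 0.0599) or PRL replicate 2 (0.0767 and 0.0703), and that of Cacna2d2 not without PRL-Sh replicate 3 (0.0517). In these DRG libraries the substrain genes summed to 43.2 to 52.3 CPM in PRL_Sh and 187.6 to 207.4 CPM in PRL. Fibroblast genes summed to 2028 to 2398 against 4885 to 6936 CPM, and 13 neuronal genes to 17072 to 19160 against 11844 to 13701 CPM. Leukocyte, endothelial and smooth muscle sums were also lower, and keratinocyte sums higher. None of these lists overlapped, and the muscle and glial lists did. Their part in the shifts was not tested.

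**Figure D5:**
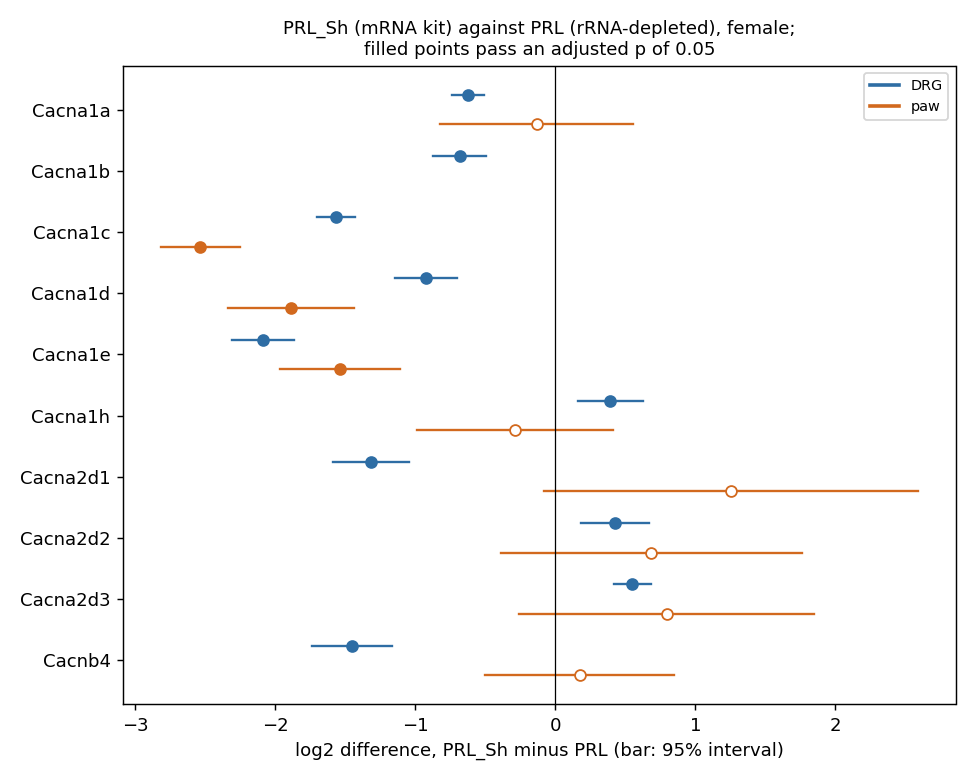
Difference between PRL_Sh (mRNA kit) and PRL (rRNA-depleted) libraries of females for each member, as log2 difference with its 95% interval, in DRG (blue) and paw (orange); filled points pass an adjusted p of 0.05 in edgeR. All 10 members are filled in DRG, 7 of them below 0, and 3 in paw; Cacna1b was too low in paw for the test.

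The order of these DRG shifts followed exon length. Cacna1e and Cacna1c, with 15.251 and 15.219 kb of exon, had the lowest values, and Cacna2d2 and Cacna2d3, with 5.831 and 3.938 kb, were among the 3 that were higher. Spearman's rho between exon length and shift was -0.879 across the 10 members, and -0.477 across the 13152 genes with a length (87.8% of those tested). In paw the values were -0.7 across 9 members and -0.482 across all genes with a length. Genes are not independent replicates, and these share the same 6 libraries. Among all genes the median shift was 0.37 below 2 kb of exon, -1.06 at 8 to 10 kb (543 genes) and -1.77 above 12 kb (202 genes). The shifts of Cacna2d1 (8.389 kb), Cacnb4 (8.709 kb) and Cacna1d (8.982 kb) can be set against the median of genes of 8 to 10 kb: Cacna1d lay above it and Cacna2d1 and Cacnb4 below. Cacna1h (8.234 kb) and Cacna1b (9.782 kb) lay above it too. For genomic span in DRG, rho was -0.321 among the members and -0.394 across all genes with a length. Cacna2d3 spans 816.9 kb. The part of exon length in the shifts was not tested.

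In DRG the shifts changed the make-up of the accessory classes. Cacna2d1 held 39.4% ± 4.7 (SD, n = 3) of the alpha2delta level in PRL_Sh and Cacna2d3 37.6% ± 3.5, with overlapping ranges. Cacnb4 held 6.91% ± 1.1 of the beta level, below Cacnb1 at 9.25% ± 0.43. Cacna1a still led the pores with 35.7% ± 0.67, and Cacna1h held 22.8% ± 2.9.

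In paw 3 of 9 tested members were called, all lower in PRL_Sh, where 58.5% of 14800 genes were called (29% lower). Cacna1c was at 7.21, 6.25 and 7.04 CPM in PRL_Sh and at 43.6, 35.2 and 35.0 CPM in PRL (log2 -2.54, SE 0.14, edgeR adjusted p = 5.84e-05). Cacna1d was at 6.98, 7.10 and 5.45 CPM against 30.2, 21.8 and 16.9 CPM (log2 -1.89, SE 0.23). Cacna1e was at 2.85, 2.23 and 3.18 CPM against 7.60, 7.06 and 8.36 CPM (log2 -1.54, SE 0.22). Their groups did not overlap, and how many of all genes were separated in this way was not counted. Cacna2d1, at 156, 94.0 and 294.5 CPM in PRL_Sh and at 48.1, 144 and 25.9 CPM in PRL, was not called (1.25, interval -0.08 to 2.59), but was without Female paw PRL replicate 2 (2.24, adjusted p = 0.0131), where 5 members were called. The muscle genes summed to 27321 to 48060 CPM in these PRL_Sh libraries and 2208 to 48715 CPM in these PRL libraries. The fibroblast genes summed to 2025 to 3071 CPM against 16708 to 23617 CPM, the leukocyte genes to 107.2 to 117.5 CPM against 546.9 to 815.5 CPM, and the substrain genes to 38.2 to 52.5 CPM against 79.4 to 94.5 CPM, all without overlap. Other lists were higher in PRL_Sh, also without overlap. Smooth muscle genes summed to 1723 to 2282 CPM against 497.5 to 1007 CPM and glial genes to 640.4 to 707.8 CPM against 262.5 to 348.1 CPM. Neuronal genes summed to 61.2 to 63.7 CPM against 28.6 to 36.4 CPM. The keratinocyte and endothelial sums overlapped. The part of these lists in the lower values of Cacna1c, Cacna1d and Cacna1e was not tested.

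The shift differed between the tissues for 6 members (paw minus DRG), where 38.6% of 16110 genes were called (25.9% higher, 12.7% lower) and the median over all genes was 0.19. The difference was higher for Cacna2d1 (2.63, SE 0.75, edgeR adjusted p = 0.0168), Cacnb4 (1.69, SE 0.33, adjusted p = 0.00233) and Cacna1e (0.61, SE 0.21, adjusted p = 0.0418). It was lower for Cacna1b (-1.69, adjusted p = 0.0207), Cacna1c (-0.91, adjusted p = 0.000903) and Cacna1d (-0.90, adjusted p = 0.0228). Cacna1b rested on 6 paw reads in PRL_Sh and 16 in PRL, too few for the test within paw, and entered this fit through its DRG level, so its value is no measure of a paw shift and 5 members remain without it. Cacna1c and Cacnb4 kept their calls in each alternative run. Cacna1e was lost with RLE scaling (0.39), with scaling by total gene reads (0.33), without a filter (0.27), with a filter at 1 CPM (0.58), with DESeq2 (0.39) and without any single library except Female paw PRL replicate 3 and Female paw PRL-Sh replicate 2. Cacna1b was lost without Female paw PRL replicate 1 or 3, Cacna1d without Female DRG PRL replicate 1 or 2 and Cacna2d1 without Female DRG PRL replicate 3 (edgeR adjusted p from 0.0527 to 0.0598), and without Female paw PRL-Sh replicate 3 only 3 members were called. Cacna1h (-0.62, adjusted p = 0.163) was called with DESeq2 (-0.84, adjusted p = 0.0276) and without Female paw PRL replicate 3 (-0.91, edgeR adjusted p = 0.0141).

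Genes that work with the channels were counted from lists of the pathway. Between the vehicle arms, all 10 genes of presynaptic release, the step that N-type and P/Q-type channels trigger, were higher in DRG (of all genes tested, 85.4% differed and 42.3% were higher), led by the calcium sensors Syt2 (log2 8.68) and Syt1 (9.78). All 5 ligands or partners of alpha2delta, the thrombospondins and Lrp1, were lower in DRG, with Thbs4 at 59.8 CPM in DRG and 465.7 CPM in paw. Of 8 channel regulators, 4 were higher and 4 lower, with the adaptor Stac at 4.39 and the L-type inhibitor Gem at -2.85. Of 8 genes of intracellular calcium release, 3 were higher and 5 lower, with Ryr2 at 5.46 and Itpr2 at -2.68. Not all of these 31 genes passed the filter on low counts within rRNA-depleted paw. Those that did not entered the tissue comparison through DRG and so had to differ, which sets part of the counts higher in DRG. In the average PRL change, none of these 31 genes was called in DRG with edgeR, where 3.60% of all genes were called. At an unadjusted p below 0.05 were 3 regulators, 2 ligands, 5 release genes and 3 of the intracellular list, against 21.5% of all genes.

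In paw the average PRL change was called for 6 of 28 genes tested from these lists, a share near the 24.9% of all genes called, so the count says nothing particular of the lists. Dpysl2, a regulator that binds the N-type channel, was higher by 0.46 (edgeR adjusted p = 0.00232) and Thbs4 by 0.52 (adjusted p = 0.0413). Vamp2, a vesicle fusion protein, was lower by -0.26 (adjusted p = 0.0109), and Snap25, its partner on the membrane, by -1.50 (adjusted p = 0.0361) at levels of 0.477 CPM with PRL and 1.42 CPM with Veh. The inositol trisphosphate receptors went apart, with Itpr3 lower by -0.40 (adjusted p = 0.00862) and Itpr1 higher by 0.20 (adjusted p = 0.0268). Among the 16 other channel genes, none of the 9 tested in paw was called in the average with edgeR (24.9% of all genes), and 1 had an unadjusted p below 0.05 (37.6% of all genes). In DRG, 1 of 12 tested was called, the T-type pore Cacna1g, higher by 0.69 (edgeR adjusted p = 0.0463, with 3.60% of all genes called).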

How the data were processed

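The authors deposited raw read counts per gene for each library, made from 50-nt single reads with bcl2fastq, TopHat2 and HTSeq on mm9, per the submitters' processing notes. Neither tool versions nor the mode and strand of counting were known here. The 5 summary lines per file were left out of library sizes and tests.

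Counts were filtered (filterByExpr), scaled by TMM and tested with edgeR 4.0.16 (quasi-likelihood F test, Benjamini-Hochberg over all genes tested, threshold 0.05) in R 4.3.3. Groups came from the labels, and each contrast used the libraries of its tissue or kit. Intervals are 1.96 SE. Relations across libraries used permutation tests. DESeq2 1.42.0, other scalings, other filters, a replicate block, a muscle covariate and leaving out each library were the alternatives. All members are named, with up to 4 called genes of smallest p per pathway list and the leading gene of each subunit class, and the members and lists were chosen with earlier results of these data known. Exon lengths are from GENCODE M21 on GRCm38, not the authors' build. The procedure was tested on simulated data. No pair of replicates was as alike as a library deposited more than once.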

Additional observations from a re-analysis of the deposited data

Results flagged for a closer look

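The change between PRL and Veh differed between paw and DRG by a test of the difference itself (edgeR) for 3 members. Paw minus DRG was 0.53 for Cacna1c, 1.05 for Cacna1d and 0.72 for Cacna1e on the log2 scale.

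The difference between PRL_Sh and PRL also differed between paw and DRG by the same kind of test for 6 members. It was -1.69 for Cacna1b, which had 6 paw reads in PRL_Sh, was too low for the test within paw and entered through its DRG level. It was -0.91 for Cacna1c and -0.90 for Cacna1d. It was 0.61 for Cacna1e, 2.63 for Cacna2d1 and 1.69 for Cacnb4. Groups of 3 libraries are too small for the test of single outlying samples, which was not run.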

How the results depend on the processing

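Of 164 results on single members, 100 kept direction and call in each alternative run. Of 2747 alternative values 48 lost a call, 13 gained one and 120 had the opposite sign. Those 120 belong to 44 results, and 0 of them was called in either fit (edgeR or, for its alternative, DESeq2). The number of members called in female paw (PRL against Veh) was 2, and 0 with only the groups compared and 0 to 2 with a library left out. In male paw it was 2, and 1 without a filter, 1 with only the groups compared and 1 to 4 with a library left out. In DRG (average of sexes) it was 0, and 1 with DESeq2 and 0 to 2 with a library left out. Between PRL_Sh and PRL in paw it was 3, and 3 to 5 with a library left out, and for the shift between tissues 6, and 3 to 6. With a library left out, values of the opposite sign occurred in the following ranges. For DRG minus paw in PRL_Sh it was -0.57 to 0.30 (Cacna2d1). For PRL minus Veh in female DRG they were -0.062 to 0.084 (Cacna2d1), -0.024 to 0.11 (Cacna2d2) and -0.026 to 0.12 (Cacna1e). For PRL minus Veh in male DRG they were -0.076 to 0.045 (Cacna1d), -0.081 to 0.13 (Cacna1e), -0.089 to 0.062 (Cacna1h), -0.023 to 0.17 (Cacna2d2) and -0.14 to 0.0041 (Cacna1b). For PRL minus Veh in female paw they were -0.41 to 0.088 (Cacna2d3), -0.45 to 0.65 (Cacna1b), -0.33 to 0.15 (Cacna1h) and -1.28 to 0.12 (Cacna2d1). For PRL minus Veh in male paw they were -0.94 to 0.37 (Cacna2d3) and -0.082 to 0.33 (Cacna1h). For PRL minus Veh in DRG on average they were -0.040 to 0.023 (Cacna1a) and -0.019 to 0.089 (Cacna1e). For PRL minus Veh in paw on average they were -0.12 to 0.15 (Cacna1h), -0.081 to 0.62 (Cacna2d1) and -0.54 to 0.12 (Cacna2d3). For the sex difference of the PRL change in DRG they were -0.092 to 0.12 (Cacna1e), -0.12 to 0.070 (Cacna2d2), -0.011 to 0.22 (Cacna2d3), -0.023 to 0.13 (Cacnb4) and -0.18 to 0.0096 (Cacna1b). For the sex difference of the PRL change in paw they were -0.22 to 0.35 (Cacna1a), -0.50 to 0.80 (Cacna2d3), -0.49 to 0.00070 (Cacna1h) and -0.40 to 0.071 (Cacna1e). For the PRL change in paw minus DRG they were -0.040 to 0.23 (Cacna1h), -0.0074 to 0.70 (Cacna2d1), -0.24 to 0.38 (Cacna2d3) and -0.51 to 0.073 (Cacna2d2). For female minus male Veh in DRG they were -0.14 to 0.043 (Cacna1b), -0.10 to 0.040 (Cacna1c) and -0.040 to 0.12 (Cacna1h). For female minus male Veh in paw they were -0.29 to 2.53 (Cacna1b), -0.14 to 0.83 (Cacna2d3) and -0.13 to 0.10 (Cacna1h). For PRL_Sh minus PRL in paw they were -0.025 to 0.47 (Cacnb4) and -0.44 to 0.14 (Cacna1a). For the PRL_Sh shift in paw minus DRG they were -0.13 to 0.67 (Cacna2d2) and -0.37 to 0.58 (Cacna2d3). With scaling by total gene reads the sign turned for PRL minus Veh in female DRG (Cacna2d1 -0.0097), PRL minus Veh in male DRG (Cacna1d 0.0015), PRL minus Veh in paw on average (Cacna1h -0.016), the sex difference of the PRL change in DRG (Cacna1e -0.026) and female minus male Veh in paw (Cacna1h 0.063). With the muscle covariate the sign turned for PRL minus Veh in female DRG (Cacna2d1 -0.073), PRL minus Veh in female paw (Cacna1b 0.22, Cacna1h 0.017, Cacna2d1 0.22, Cacna2d3 0.063 and Cacnb4 0.094), PRL minus Veh in male paw (Cacna1h -0.060), PRL minus Veh in paw on average (Cacna1h -0.022), the sex difference of the PRL change in paw (Cacna1h 0.077) and female minus male Veh in paw (Cacna1h 0.015). With RLE scaling the sign turned for PRL minus Veh in paw on average (Cacna1h -0.015). Without a filter the sign turned for PRL minus Veh in paw on average (Cacna1h -0.026) and the PRL_Sh shift in paw minus DRG (Cacna2d2 -0.018 and Cacna2d3 -0.028). With DESeq2 the sign turned for PRL minus Veh in paw on average (Cacna1h -0.015). The causes were not tested. With the replicate block, the 17 counts of members and the 164 single results were the same in direction and call, with 2 members called in female and 2 in male paw. Genes called in female paw went from 1111 to 899, and between vehicle sexes in paw from 16 to 8. In none of 13 pairs of groups did all same-numbered libraries correlate above 0.1. Single values reached 0.388 (Female DRG PRL and Female paw PRL, replicate 3). This check cannot settle whether DRG and paw libraries came from the same mice. The muscle covariate on tissue and vehicle sex contrasts and on the paw minus DRG change, the longest-transcript lengths and the relation to muscle genes were chosen after seeing the data. Low read numbers limit Cacna1b and Cacna2d2 in paw.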

Other observations

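Genes with the profile closest to each member were found by the root mean square difference of centred log2 CPM over all 30 libraries, among 14011 genes with a mean of at least 1 CPM. Cacna1c had the closest neighbour, Ssh1 at 0.188, and Cacna1h was nearest to Rcan2 at 0.204. Cacna1d was nearest to Chsy1 at 0.248, Cacna2d2 to Srrm3 at 0.256, Cacna2d1 to Filip1 at 0.29 and Cacna1a to Osbpl6 at 0.292, with the channel family gene Cacng2 next at 0.298. Cacnb4 was nearest to Nalcn, a sodium leak channel, at 0.31, and Cacna2d3 to Mgat3 at 0.315. Cacna1b was nearest to Kif5c at 0.335, and Cacna1e to Purg at 0.36. The libraries share tissue and kit differences, so likeness over them is a description only.

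Among the other calcium channel genes, 14 of 16 were tested between the vehicle tissues, 8 were higher in DRG and 5 lower, where 85.4% of all genes tested were called. Cacng5 (log2 7.57), Cacna1i, a T-type pore (4.88), Cacng7 (3.59) and Cacnb3 (3.31) were higher in DRG. Only 9 of the 16 could be tested within paw. Cacng5 had 9 reads over the 12 rRNA-depleted paw libraries, with 7 libraries at 0, and Cacna1i had 59. Cacng2, Cacng3 and Cacng4 had 4, 0 and 34 reads there. All of these passed the filter through DRG and so had to differ, and the count of 8 higher in DRG is partly set by the filter. The skeletal muscle subunits Cacng1 (-5.49) and Cacna1s (-4.39) and the T-type pore Cacna1g (-2.98) were lower in DRG.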
